A study of Mus musculus with 4 samples.

Results

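The Hox genes encode homeodomain transcription factors that tell a cell where along the body axis or a limb it lies, and the levels of all members were compared between libraries labelled as articular cartilage of the mouse hip and knee. Members were the genes that GENCODE, the reference annotation of the mouse genome, types as protein coding and that carry a Hoxa, Hoxb, Hoxc or Hoxd symbol with a paralog number. These were 39 of the 50488 genes listed in the tables of both joints, with 11 in the Hoxa, 10 in the Hoxb, 9 in the Hoxc and 9 in the Hoxd cluster. Poly-A RNA was sequenced in 4 libraries, 1 per condition. The hip control was labelled Cbfb f/f, a genotype with no Cre, with the treatment given as none (the methods describe TMX or oil injections for such mice), and the other hip library came from tamoxifen (TMX) injected Cbfb f/f;Col2a1-CreERT mice. The knee control came from oil-injected Cbfb f/f;Aggrecan-CreERT mice, and the other knee library from TMX-injected mice of that genotype. All of these mice carried the floxed Cbfb allele. Col2a1-CreERT and Aggrecan-CreERT drive TMX-dependent recombination from promoters of cartilage matrix genes. The hip mice were described as 6 weeks old in one place and as 2 months old in another, and the knee mice were 12 weeks old. TMX was given at 75 mg per kg per day from 2 weeks of age for the hip, and from 8 weeks by one description or 6 weeks by another for the knee. Joint, Cre line, age, kind of control, the form of the count table and the set of genes it lists all changed together between hip and knee, so their effects on a gene cannot be told apart. The number of animals behind a library was not stated, so the spread between libraries can hold technical as well as animal differences.

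The libraries held between 34264456 and 38473120 counts on genes. A floor of 3 counts corresponded to 0.0780 to 0.0876 CPM (counts scaled to a common library total) in a library. Cbfb, the floxed gene, had 2548 and 2946 counts in the hip control and in the hip library labelled Cbfb-deficient, and 3796 and 4572 in the 2 knee libraries in the same order. Its log2 ratio within a joint was 0.37 (95% counting interval 0.29 to 0.45) in the hip and -0.08 (-0.14 to -0.01) in the knee. The gene counts thus showed no clear loss, and these libraries are named as labelled throughout. By western blot the study found less Cbfb protein in hip cartilage of both Cre lines after TMX. RNA counts over a whole gene are another measure than protein. Where a pair of values is given for a joint, the control comes first. The 16 chondrocyte markers took 0.0328% and 0.0158% of the counts in the hip libraries against 0.674% and 0.383% in the knee libraries, with none of them at 0 in any library. Col2a1, the main cartilage collagen, had hip counts of 354 and 228 and knee counts of 87367 and 33204. The 22 skeletal muscle markers, none at 0, took 18.9% and 20.2% of hip counts against 1.45% and 3.09% of knee counts, and the 8 erythroid markers, also none at 0, took 0.588% and 0.222% against 9.97% and 4.93%. The 6 neutrophil markers took 0.0374% and 0.0424% of hip counts against 2.94% and 2.36% of knee counts, and the 9 osteoblast markers 0.0887% and 0.0216% against 1.16% and 0.691%, with none at 0. The 10 fibroblast markers, none at 0, took 0.313% and 0.131% of hip counts against 1.19% and 0.855% of knee counts. For the 6 macrophage markers the shares were 0.0129% and 0.00595% against 0.0526% and 0.0508%. For the 8 adipocyte markers they were 0.0618% and 0.0719% against 0.0738% and 0.131%. The 5 endothelial markers took 0.0197% and 0.0195% against 0.0156% and 0.0221%. The hip libraries, though labelled as cartilage, thus held few reads of cartilage markers, and the part of these marker differences in the Hox results was not tested. In such bulk libraries fewer cells of a type and less RNA per cell cannot be told apart.

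As background, mammalian Hox genes lie in 4 clusters on different chromosomes, and genes at the same place in each cluster form a paralog group. Low paralog numbers are used toward the head and at proximal levels, and high numbers toward the tail and the tip of a limb, an order that follows the order along the chromosome. In the limb, paralogs 9 and 10 pattern mainly the proximal segment, paralog 11 the middle segment, and paralog 13 the hand or foot. Posterior Hoxc genes such as Hoxc10 are known as hindlimb genes rather than forelimb genes. Adult connective tissue keeps part of its embryonic Hox pattern. HOX proteins bind DNA together with TALE partners of the PBX, MEIS and PREP families, and Polycomb and Trithorax proteins hold the clusters in their silent or active state.

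The bases before the start of 3 Hoxa genes show the neighbouring promoters of a group that was higher in both hip libraries than in both knee libraries. They come from the RefSeq promoter table of GRCm38.p6, which had windows for 22 of the 39 Hox genes. Windows were chosen for Hoxa genes that passed the test between joints with at least 100 counts in every library, and were kept where GENCODE annotated no exon base inside. All are on chromosome 6, on the minus strand, and are written 5′ to 3′ with CpG dinucleotides in capitals. The Hoxa5 window is chr6:52204588-52204837 and lies within the spans of Hoxa3 and Gm28308 and of the opposite-strand Hoxaas3. The Hoxa9 window is chr6:52227371-52227620, within longer Hoxa9 transcripts and the opposite-strand Gm68361. The Hoxa10 window is chr6:52240855-52241104 and lies in no annotated gene.
Hoxa5: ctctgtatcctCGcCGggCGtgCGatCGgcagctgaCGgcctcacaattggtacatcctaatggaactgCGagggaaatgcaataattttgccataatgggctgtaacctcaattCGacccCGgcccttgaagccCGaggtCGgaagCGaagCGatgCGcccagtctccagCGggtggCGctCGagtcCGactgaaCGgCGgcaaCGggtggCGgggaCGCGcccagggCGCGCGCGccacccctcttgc
Hoxa9: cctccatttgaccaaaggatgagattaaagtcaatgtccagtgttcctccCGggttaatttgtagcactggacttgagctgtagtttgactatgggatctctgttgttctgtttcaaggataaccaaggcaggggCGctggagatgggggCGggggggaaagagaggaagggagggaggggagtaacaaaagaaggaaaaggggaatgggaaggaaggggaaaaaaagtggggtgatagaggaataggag
Hoxa10: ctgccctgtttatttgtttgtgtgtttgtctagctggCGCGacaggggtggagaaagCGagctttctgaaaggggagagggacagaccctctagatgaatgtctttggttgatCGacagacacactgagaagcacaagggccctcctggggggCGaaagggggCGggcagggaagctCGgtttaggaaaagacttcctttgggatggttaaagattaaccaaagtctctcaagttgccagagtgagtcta
The Hoxa5 window held 28 CpG, the Hoxa10 window 7 and the Hoxa9 window 3, so promoters of one cluster differed widely in CpG content. The median over the 24 Hox windows of 250 bases was 12.5, against 6 over all 32851 windows of the table. Both strands were searched for 4 letter patterns, whose matches may overlap one another. The PBX-HOX composite TGATNNAT was in 16.7% of the Hox windows and 7.68% of all windows, the MEIS and PREP pattern TGACAG in 8.33% and 15.9%, the homeodomain core TAATTA in 8.33% and 4.84%, and the CDX and posterior HOX pattern TTTATNG in 8.33% and 9.81%. None of these letters was in the 3 windows printed. Hoxc8, Hoxc9, Hoxc10 and Hoxc11 were not among the entries of the table.

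The clusters that supplied the Hox counts differed between the joints, while the order of the joints in total Hox level depended on the scaling. All 39 genes summed to 103 CPM in the hip control, 112 CPM in the hip library labelled Cbfb-deficient, 111 CPM in the knee control and 142 CPM in the knee library labelled Cbfb-deficient. In TMM-scaled CPM, chosen after seeing the data, the sums were 144, 143, 88.8 and 99.6 in the same order. Hoxa genes gave 72.4% (95% Clopper-Pearson interval 71.0 to 73.8) and 74.1% (72.7 to 75.5) of the Hox counts in the hip libraries, against 31.3% (29.8 to 32.8) and 34.3% (33.0 to 35.6) in the knee libraries. Hoxc genes gave 7.55% (6.75 to 8.42) and 4.27% (3.66 to 4.96) in the hip against 41.8% (40.2 to 43.3) and 38.8% (37.5 to 40.1) in the knee. Hoxb genes gave 8.87% and 7.26% in the hip against 15.2% and 14.0% in the knee. Hoxd genes differed least, with 11.2% and 14.4% in the hip against 11.7% and 12.9% in the knee. These intervals cover counting error only. A share of a library's own Hox counts does not depend on how libraries are scaled to each other, and for Hoxa, Hoxb and Hoxc the 2 joints did not overlap.

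**Figure D1:**
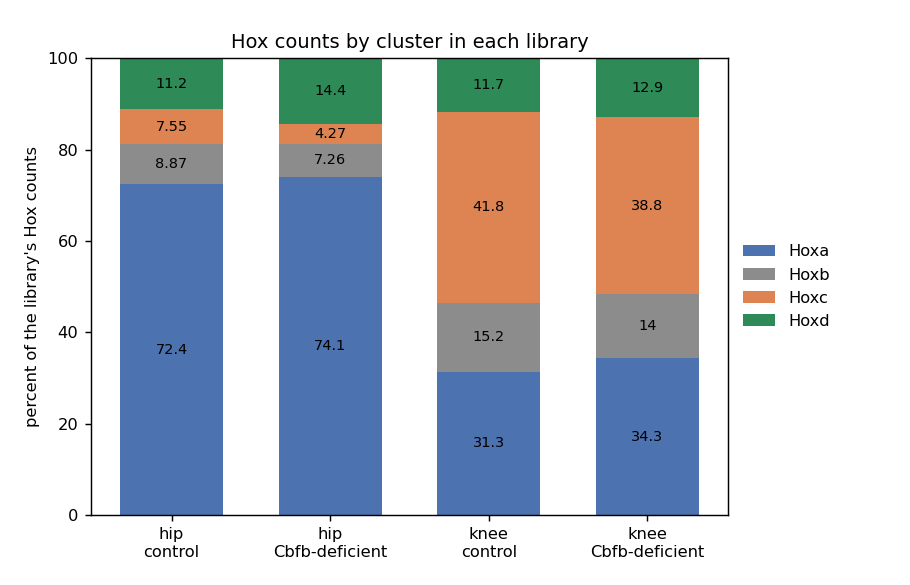
Percent of each library's Hox counts (vertical axis) that fell in the Hoxa, Hoxb, Hoxc and Hoxd clusters, for the 4 libraries as labelled. The Hoxa part is 72.4% and 74.1% in the hip bars and 31.3% and 34.3% in the knee bars, and the Hoxc part is 7.55% and 4.27% against 41.8% and 38.8%.

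By paralog group, group 9 gave 21.0%, 23.0%, 22.8% and 22.8% of the Hox counts in the hip control, the other hip library, the knee control and the other knee library. Group 7 was higher in the hip, with 13.8% and 14.3% against 4.70% and 5.11%. Groups 12 and 13, the most distal of the limb code, gave 5.63% and 5.38% in the hip against 0.845% and 1.55% in the knee, with Hoxa13 the best counted of them in every library. Group 8 gave 5.58% and 9.96% in the hip against 17.3% and 13.6% in the knee. Every library held 100 counts or more for each of 6 genes, namely Hoxa5, Hoxa7, Hoxa9, Hoxa10, Hoxd8 and Hoxd9, and 23 were under 100 counts in every library.

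**Figure D2:**
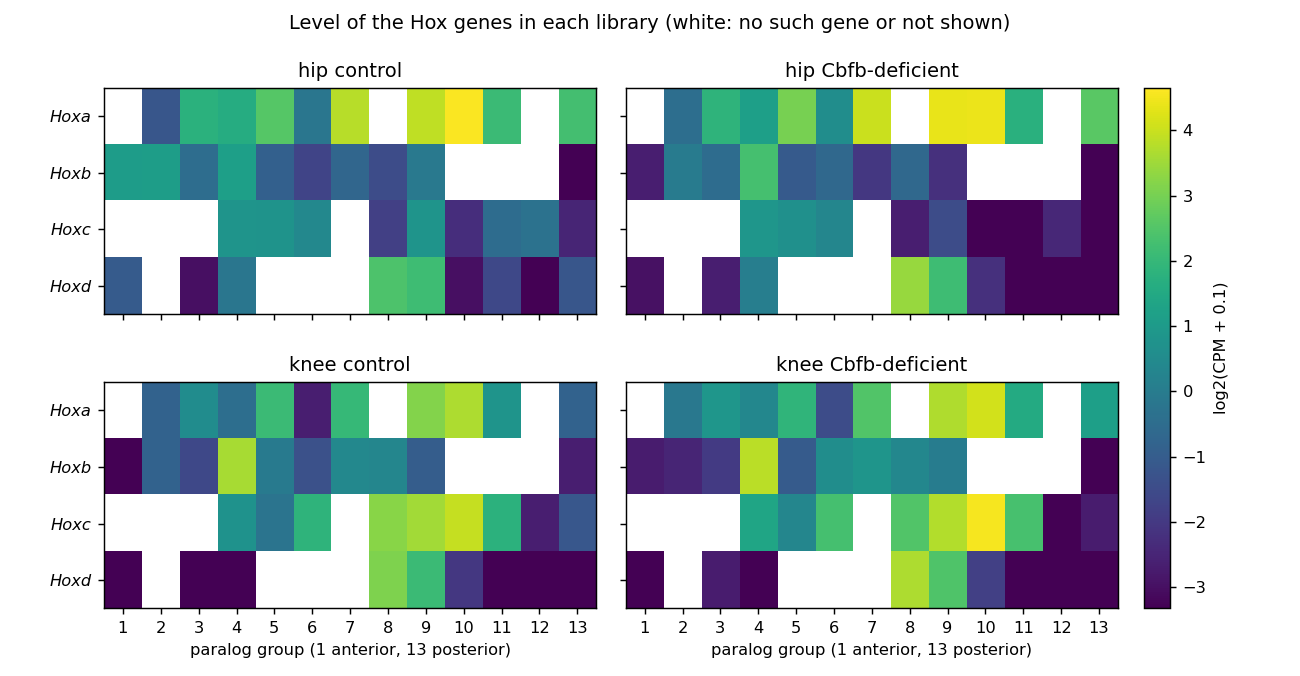
Level of each Hox gene as log2(CPM + 0.1) (colour scale), by cluster (rows) and paralog group (columns), in 1 panel per library as labelled, with white where there is no such gene or none is shown. The bright stretch lies in the Hoxa row in both hip panels, while both knee panels add bright cells at Hoxb4 and from Hoxc8 to Hoxc10.

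Levels of different genes were compared per kb of merged exon length. Hoxa10 ranked first in both hip libraries, at 7.31 CPM per kb (95% counting interval 6.85 to 7.80) in the control and 6.46 (6.00 to 6.94) in the library labelled Cbfb-deficient. Hoxa7 was second at 4.75 and 5.53 CPM per kb, and in the latter library its interval (5.08 to 6.01) overlapped that of Hoxa10. These were followed by Hoxa5 at 3.05 and 4.28 CPM per kb and Hoxa9 at 2.64 and 3.76 CPM per kb. In the control the counting intervals of Hoxa5 (2.66 to 3.48) and Hoxa9 (2.43 to 2.87) overlapped. In both knee libraries Hoxc10 ranked first, at 7.54 (6.91 to 8.21) and 11.3 (10.6 to 12.1) CPM per kb. Hoxb4, which is known for its part in blood stem cell growth as well as in the neck skeleton, followed at 4.73 and 5.45 CPM per kb. Hoxc9 had 4.20 and 4.70 and Hoxa10 3.82 and 5.16 CPM per kb in the knee, and in each knee library the intervals of Hoxb4 and the next gene overlapped. Per kb of the canonical transcript the first gene of each library was the same, while in the knee Hoxa10 came second and Hoxb4 next.

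The comparison of hip with knee asks which members differed in level between the libraries of the 2 joints. It was tested over 20684 genes with at least 20 counts in all, by edgeR's quasi-likelihood test with joint and condition as terms, TMM scaling and Benjamini-Hochberg adjustment, which left 1 residual degree of freedom. Among the Hox genes 31 were tested and 14 passed an adjusted p of 0.05. Over all genes 32.2% passed, 15.9% with a higher level in the hip and 16.3% with a higher level in the knee. The Hox calls differed in direction by cluster. Of the 11 Hoxa genes tested 8 were higher in the hip and 0 in the knee. Of the 8 Hoxc genes tested 4 were higher in the knee and 0 in the hip. Of 9 Hoxb genes 1 and of 3 Hoxd genes 1 were higher in the hip. Among the Hox genes that passed, Hoxa6, Hoxb2 and Hoxd4 reached the least of 20 counts through the hip libraries alone. Hoxc8 and Hoxc10 reached it through the knee libraries alone. The filter thus admitted these genes because of the joint where they were high. The calls depended on the scaling. Scaling by library size alone moved the median of all genes by -0.82 on the log2 scale, from -0.05 to -0.87, and the Hox median from 0.70 to -0.12. With that scaling 40.2% of all genes passed, 8.91% higher in the hip and 31.3% higher in the knee, and 11 Hox genes passed, 5 higher in the hip (Hoxa6, Hoxa7, Hoxa13, Hoxb2 and Hoxd4) and 6 higher in the knee (Hoxb4, Hoxc6, Hoxc8, Hoxc9, Hoxc10 and Hoxc11). In CPM, 16 Hox genes were higher in both hip libraries than in both knee libraries, 10 were higher in both knee libraries and 13 overlapped. Of the 31 tested these were 15, 9 and 7, against 72% of all tested genes without overlap, 18.2% higher in the hip and 53.8% higher in the knee. In TMM-scaled CPM, chosen after seeing the data, 17 of the 31 were higher in both hip libraries and 9 in both knee libraries, against 68.1% of all genes without overlap, 32.8% higher in the hip and 35.3% higher in the knee.

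**Figure D3:**
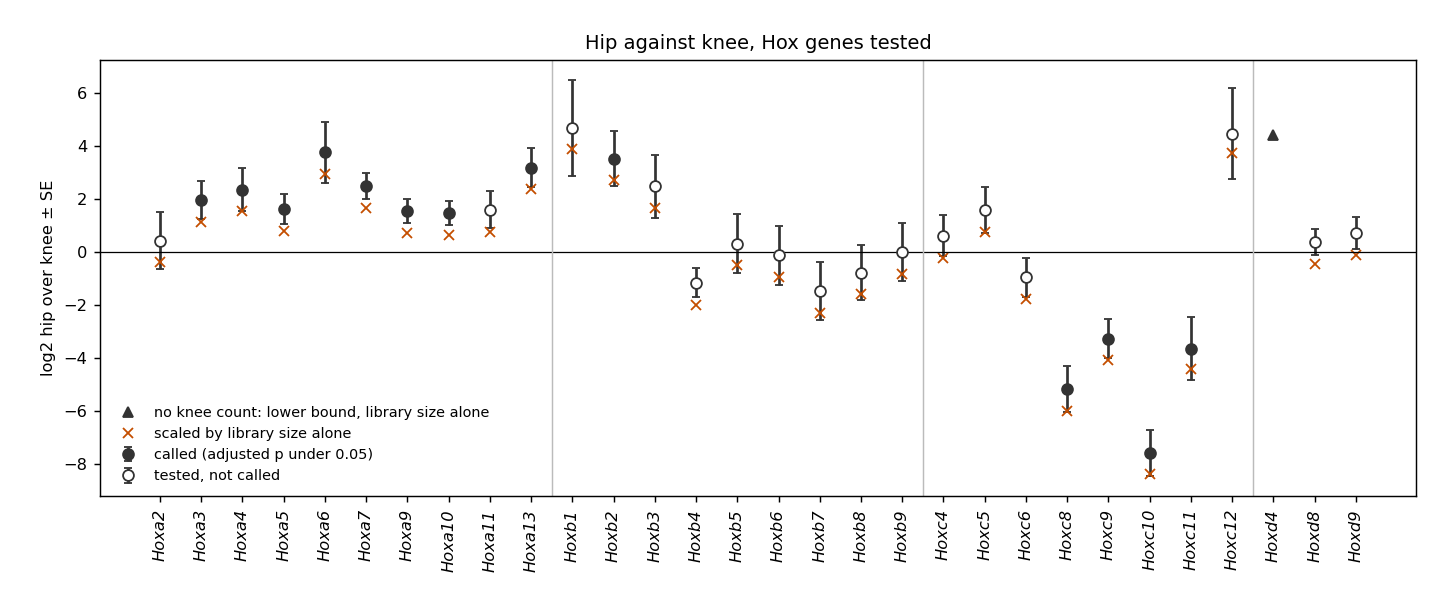
Log2 level in hip over knee (vertical axis, circles with SE bars from the edgeR fit) for tested Hox genes, in cluster order, with filled circles for genes past an adjusted p of 0.05, crosses for scaling by library size alone, and a triangle for the lower bound of Hoxd4. From Hoxa3 to Hoxa13 every circle and cross lies above 0, and the circles of Hoxc8 to Hoxc11 lie between -3.27 and -7.60.

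A run of neighbouring Hoxc genes, Hoxc8 to Hoxc11, was higher in the knee. Hoxc10 (ENSMUSG00000022484, chromosome 15 of GRCm39 from 102875134 to 102880330, plus strand), a gene of the lumbar spine and hindlimb, had 4 counts in the hip control, 0 in the hip library labelled Cbfb-deficient, 529 in the knee control and 883 in the knee library labelled Cbfb-deficient. The knee libraries lay at 15.4 and 23.1 CPM and the hip libraries at 0.104 CPM and 0 CPM. Its summed counts gave a level 356-fold higher in the knee by library size (95% counting interval 139 to 1307), and the edgeR fit gave a log2 hip over knee of -7.60 ± 0.87 (SE) with an adjusted p of 2.61e-06. This was the lowest adjusted p among the Hox genes.

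Hoxc8, a gene of the trunk skeleton, had hip counts of 7 and 2 and knee counts of 322 and 210, a log2 hip over knee of -5.19 ± 0.87 (edgeR adjusted p = 0.000101). Hoxc9, also a trunk and proximal limb gene, had hip counts of 63 and 9 and knee counts of 400 and 499, a log2 hip over knee of -3.27 ± 0.73 (edgeR adjusted p = 0.00171). Neither gene's hip libraries came near its knee libraries. Hoxc11, a hindlimb and lumbosacral gene, had hip counts of 23 and 0 and knee counts of 116 and 187, a log2 hip over knee of -3.65 ± 1.19 (edgeR adjusted p = 0.0234). Hoxc8, Hoxc9 and Hoxc10 passed in each of 7 other settings. With 1 library left out the log2 hip over knee ran from -6.22 to -4.47 for Hoxc8 and from -4.80 to -2.02 for Hoxc9. For Hoxc10 it ran from -12.2 to -6.59, and with 0 counts in 1 hip library its lower end is not a measured fold. Of the fits that left out 1 library, Hoxc11 passed only the one without the hip control (adjusted p 0.000532). Without the other hip library its adjusted p was 0.0565, without the knee control 0.112 and without the other knee library 0.171, and with joint as the only term 0.131, all by the same edgeR test. Each fit without a library held joint as its only term, so the model changed along with the library, and the lone library of a joint is assumed to vary like those of the other joint. Other genes overlapped 0% of the exon bases of Hoxc8 and Hoxc11, 13.3% of those of Hoxc9 and 8.11% of those of Hoxc10.

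The next genes on either side differed less or in the other direction. Summed over Hoxc8 to Hoxc11 the level was 2.52 and 0.318 CPM in the hip libraries and 39.9 and 46.5 CPM in the knee libraries. Summed over Hoxc4 to Hoxc6, the anterior end of the cluster, it was 4.47 and 4.40 CPM in the hip against 5.87 and 8.40 CPM in the knee. Hoxc6, which marks the thoracic region, had hip counts of 47 and 40 and knee counts of 122 and 183, so the joints did not overlap, but it passed only with scaling by library size alone (log2 hip over knee -0.97 ± 0.73 with edgeR adjusted p = 0.333, and -1.79 with adjusted p = 0.0489 by library size). Over the 7 other settings its adjusted p ran from 0.0489 to 0.449. Hoxc4 and Hoxc5 were between 25 and 94 counts in every library and did not pass. At the posterior end Hoxc12 had hip counts of 27 and 3 and knee counts of 2 and 0 (edgeR adjusted p = 0.0505), and Hoxc13, a gene of hair and nails, had 3, 0, 12 and 2 counts and was not tested.

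**Figure D4:**
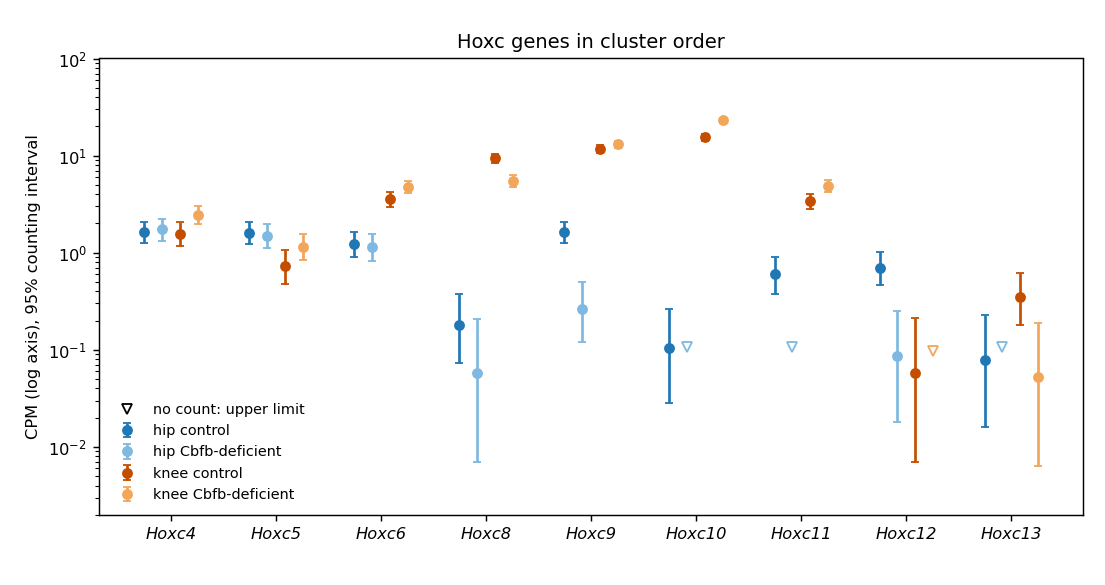
CPM on a log axis with 95% counting intervals for the 9 Hoxc genes in cluster order (horizontal axis), with 1 colour per library as labelled and open triangles at the upper limit where a library had no count. The knee points stand above the hip points from Hoxc6 to Hoxc11, by the largest gap at Hoxc10, and not at Hoxc4, Hoxc5 or Hoxc12.

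Ratios within a library between a Hoxc gene and its paralog in another cluster need no scaling between libraries. They are given first for the 4 Hoxc genes that passed, so their direction follows from that choice and is a description. Of the counts of Hoxc10 and Hoxa10 together, Hoxc10 held 0.429% (95% Clopper-Pearson interval 0.117 to 1.09) in the hip control and 0% (up to 0.499) in the other hip library, against 55.0% (51.8 to 58.2) and 57.5% (55.0 to 60.0) in the knee libraries. Hoxc9 held 10.0% and 1.22% of the counts of Hoxc9 and Hoxa9 in the hip, against 56.8% and 50.2% in the knee. For Hoxc11 and Hoxa11 the Hoxc share was 12.5% and 0% of hip counts and 67.1% and 63.2% of knee counts. Hoxc8, which has no Hoxa paralog, held 3.32% and 0.543% of the counts of Hoxc8 and Hoxd8 in the hip, against 52.3% and 30.3% in the knee. In these 4 pairs the hip and knee shares did not overlap. Among the other Hoxc genes with a Hoxa paralog, added after seeing the data, Hoxc5 held 22.0% and 15.8% of the counts of Hoxc5 and Hoxa5 in the hip against 14.7% and 24.0% in the knee, so the joints overlapped. The Hoxc4 share with Hoxa4 was 35.6% and 44.8% against 71.1% and 67.6%, and the Hoxc6 share with Hoxa6 was 61.0% and 45.5% against 98.4% and 94.8%. Hoxc13 with Hoxa13 was at 1.64% and 0% against 42.9% and 2.38%, on at most 12 counts of Hoxc13 in a library.

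The Hoxa cluster was higher in the hip over most of its length. Hoxa10 (ENSMUSG00000000938, chromosome 6 of GRCm39 from 52208164 to 52217834, minus strand), a gene of the proximal limb and lumbar spine, had hip counts of 929 and 738 and knee counts of 432 and 652. Its log2 hip over knee was 1.46 ± 0.45 (edgeR adjusted p = 0.0179). Hoxa9, which acts in the proximal limb and in blood progenitors, had hip counts of 567 and 726 and knee counts of 304 and 496 (log2 hip over knee 1.54 ± 0.46, edgeR adjusted p = 0.0139). Hoxa7, a thoracic gene, had hip counts of 527 and 551 and knee counts of 136 and 212, the clearest gap among the well-counted Hoxa genes (2.48 ± 0.50, edgeR adjusted p = 0.000603). Hoxa5, which patterns the neck and upper thorax, had hip counts of 220 and 278 and knee counts of 145 and 139 (1.61 ± 0.57, edgeR adjusted p = 0.0339). In each of these genes both hip libraries lay above both knee libraries in CPM.

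Hoxa13, a gene of the developing hand and foot, had hip counts of 180 and 206 and knee counts of 16 and 82, and a log2 hip over knee of 3.17 ± 0.72 (edgeR adjusted p = 0.0020). Its 2 knee libraries differed from each other by more than its hip libraries did. The log2 hip over knee of Hoxa13 was 2.10 without the knee control and 4.16 without the other knee library. Hoxa6 had hip counts of 30 and 48 and knee counts of 2 and 10 (log2 hip over knee 3.74 ± 1.15, edgeR adjusted p = 0.0165). Toward the anterior end, Hoxa3 had hip counts of 126 and 121 and knee counts of 47 and 66 (1.96 ± 0.71, edgeR adjusted p = 0.0390), and Hoxa4 had 114 and 74 against 22 and 45 (2.34 ± 0.82, edgeR adjusted p = 0.0320). Both belong to the neck region of the body axis. Hoxa11, the gene of the middle limb segment, had hip counts of 161 and 113 and knee counts of 57 and 109 and did not pass (1.58 ± 0.69, edgeR adjusted p = 0.0846), and other genes overlap 43.6% of its exon bases. Hoxa2, toward the anterior end, had at most 31 counts in a library and did not pass.

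The number of Hoxa calls depended on the scaling and on the libraries in the fit. With library size alone the log2 hip over knee of Hoxa3, Hoxa4, Hoxa5, Hoxa9 and Hoxa10 stayed above 0, at 1.13, 1.52, 0.79, 0.71 and 0.63, and none of these 5 passed, with edgeR adjusted p from 0.153 to 0.300. Over the 7 other settings the adjusted p of the 8 genes ran from 1.58e-05 for Hoxa7 (DESeq2) to 0.300 for Hoxa5. Hoxa6, Hoxa7 and Hoxa13 passed under both scalings, with edgeR adjusted p of 0.0456, 0.00799 and 0.00928 by library size. With all 4 libraries and joint as the only term the 8 genes passed, with edgeR adjusted p from 0.00584 for Hoxa7 to 0.0457 for Hoxa5. In that model without the knee control none of the 8 passed, though the log2 hip over knee was still 2.21 for Hoxa7 (edgeR adjusted p = 0.0973), 1.76 for Hoxa3, 1.25 for Hoxa9 and 1.21 for Hoxa10 (edgeR adjusted p = 0.383). Without the knee library labelled Cbfb-deficient Hoxa7 and Hoxa13 passed, at edgeR adjusted p of 0.0432 and 0.0128, and the others did not, with Hoxa9 at 1.68 and Hoxa10 at 1.52.

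In the Hoxb cluster Hoxb4 had the most counts in every library. It had hip counts of 84 and 168 and knee counts of 416 and 535, so the joints did not overlap in CPM, with log2 hip over knee of -1.17 ± 0.54 (edgeR adjusted p = 0.107) and -1.99 by library size alone (edgeR adjusted p = 0.00255). Over the 7 other settings its adjusted p ran from 0.00255 to 0.152. Hoxb2, a hindbrain and upper neck gene, passed in the other direction with hip counts of 79 and 31 and knee counts of 16 and 3 (3.51 ± 1.03, edgeR adjusted p = 0.0122). It did not pass in the fits without the hip control (0.0919), without the knee control (0.0622) or without the knee library labelled Cbfb-deficient (0.312), or in the fit of all 4 libraries with joint as the only term (0.0587), all edgeR adjusted p. Hoxb1, the most anterior member, had 77 counts in the hip control and 2, 0 and 2 counts in the other hip library, the knee control and the other knee library, so a single library held nearly all of its reads (edgeR adjusted p = 0.0532). It passed in 4 of 7 other settings, with the lowest edgeR adjusted p of 0.0211 where no low-count filter was used. Without the hip control its log2 hip over knee fell from 4.67 to 1.73. The other 6 tested Hoxb genes were at 65 counts or fewer in every library and did not pass.

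Among Hoxd genes, Hoxd8 and Hoxd9 were the only ones above 33 counts in a library. Hoxd8, expressed in the trunk and proximal limb, had hip counts of 204 and 366 and knee counts of 294 and 482 (log2 hip over knee 0.35 ± 0.49, edgeR adjusted p = 0.624). Hoxd9 had 169 and 153 against 146 and 206 counts (0.70 ± 0.59, edgeR adjusted p = 0.388). For both genes the hip and knee values interleaved in CPM, and both log2 values fell below 0 by library size alone, at -0.47 and -0.12. Hoxd4 had 30 and 33 counts in the hip and none in either knee library, a level at least 20.8-fold higher in the hip by library size, with the floor of 3 counts taken over both knee libraries (edgeR adjusted p = 0.00141). It reached the least of 20 counts through the hip libraries alone, so among genes with so few reads it could be tested only because it was high there. Exons of other genes, Hoxd3 among them, cover 52.0% of its exon bases, and how each table counted reads shared by overlapping genes was not tested. The distal limb genes Hoxd10, Hoxd11, Hoxd12 and Hoxd13 had at most 13 counts in a library, and Hoxd12 had none in any library, where the floor of 3 counts stands at 0.0780 to 0.0876 CPM. The 8 Hox genes not tested had at most 15 counts in a library.

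Within the hip pair, the library labelled Cbfb-deficient was set against the control. This has 1 library a side, so the pair alone gives no test. Over both joints, edgeR's test of condition with joint as a term, added after seeing the data, called 0 of 31 Hox genes, and 0 had an unadjusted p under 0.05, against 0.00967% and 6.49% of all 20684 genes. The lowest unadjusted p among them was 0.0633, for Hoxc12, by that edgeR test. A gene counted as changed when its pair of libraries held 10 counts or more, with a log2 ratio of 1 or more in either direction and a 95% counting interval clear of 0. Of the 30 Hox genes with 10 counts, 12 were changed, 3 higher and 9 lower. Over all genes 36.5% were changed, 19.6% higher and 16.9% lower. With the dependence of ratios on transcript length and GC content taken out, a step chosen after seeing the data, 5 were higher and 7 lower, against 13.8% and 15.6% of all genes. The 11 Hox genes with at least 100 counts in a library had log2 ratios from -0.46 to 1.16. Of these Hoxb4 at 1.16 (0.78 to 1.56) and Hoxd8 at 1.00 (0.75 to 1.26) were changed, against 30.7% of all genes at that level. Hoxa10 was at -0.17 (-0.31 to -0.03), Hoxa9 at 0.52 (0.36 to 0.68) and Hoxa7 at 0.23 (0.05 to 0.40). With the correction for length and GC content Hoxa10 turned to 0.22 (0.08 to 0.36), and Hoxa7 was at 0.56.

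All 9 lower genes had fewer than 100 counts in both hip libraries. The hip control had a count for 30218 genes and the other hip library for 27278, with 7.40% and 5.96% of listed reads ambiguous, and the part of this in the low-count Hox genes was not tested. Hoxb1 went from 77 to 2 counts, a log2 ratio of -4.79 (-8.18 to -3.20). Hoxb2 had 79 and 31 counts (-1.17), Hoxb7 20 and 5 (-1.74, with knee counts of 42 and 65), Hoxb9 32 and 4 (-2.69, with knee counts of 14 and 35) and Hoxc9 63 and 9 (-2.58, with an interval of -3.84 to -1.63). Hoxc12 had 27 and 3 counts (-2.81) and Hoxd1 had 15 and 1 (-3.21). Neither Hoxd1 nor Hoxd13 had a count in a knee library. Hoxc11 with 23 and 0 counts was at least 6.85-fold lower, and Hoxd13 with 13 and 0 counts at least 3.87-fold lower, each against the floor of 3 counts in 1 library and with no counting error on the control. Their 95% counting intervals ended at log2 ratios of -2.36 and -1.45. Hoxb6 was the other higher gene, with 8 and 19 counts (1.36, 0.15 to 2.81). Of the genes not tested between joints, Hoxd13, Hoxd1 and Hoxd11 had more counts in the hip control than in the other 3 libraries together, though at most 15 each.

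Within the knee pair, 30 Hox genes had at least 10 counts and 5 were changed, 2 higher and 3 lower, against 15.9% of all genes, 8.96% higher and 6.92% lower. With the dependence on length and GC content taken out, 3 were higher and 3 lower, against 9.26% and 5.51% of all genes. None of the 13 Hox genes with at least 100 counts in a library was changed, against 9.29% of all genes at that level, and their log2 ratios ran from -0.96 to 0.58. The lowest of them was Hoxc8, from 322 to 210 counts (-0.96, -1.22 to -0.71), while its neighbours Hoxc9 at -0.03 (-0.22 to 0.17) and Hoxc10 at 0.39 (0.24 to 0.55) were not lower by the same amount. The higher genes were Hoxa13, from 16 to 82 counts (1.98, 1.23 to 2.89), and Hoxb6, from 10 to 54 (2.03, 1.10 to 3.23). The lower genes were Hoxb2, from 16 to 3 counts (-2.58, -5.18 to -0.96), Hoxb5, from 29 to 15 (-1.27, -2.30 to -0.35, with hip counts of 17 and 13), and Hoxc13, from 12 to 2 (-2.67, -6.13 to -0.76). The Hox median was 0.29 against 0.01 over all genes in the knee, and -0.05 against -0.02 in the hip. Hoxb2 was lower and Hoxb6 higher in both pairs, and no other Hox gene was changed in both. With the correction Hoxb2 at -0.59 (-1.26 to 0.01) and Hoxb7 at -1.17 (-3.04 to 0.18) no longer counted as changed in the hip.

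**Figure D5:**
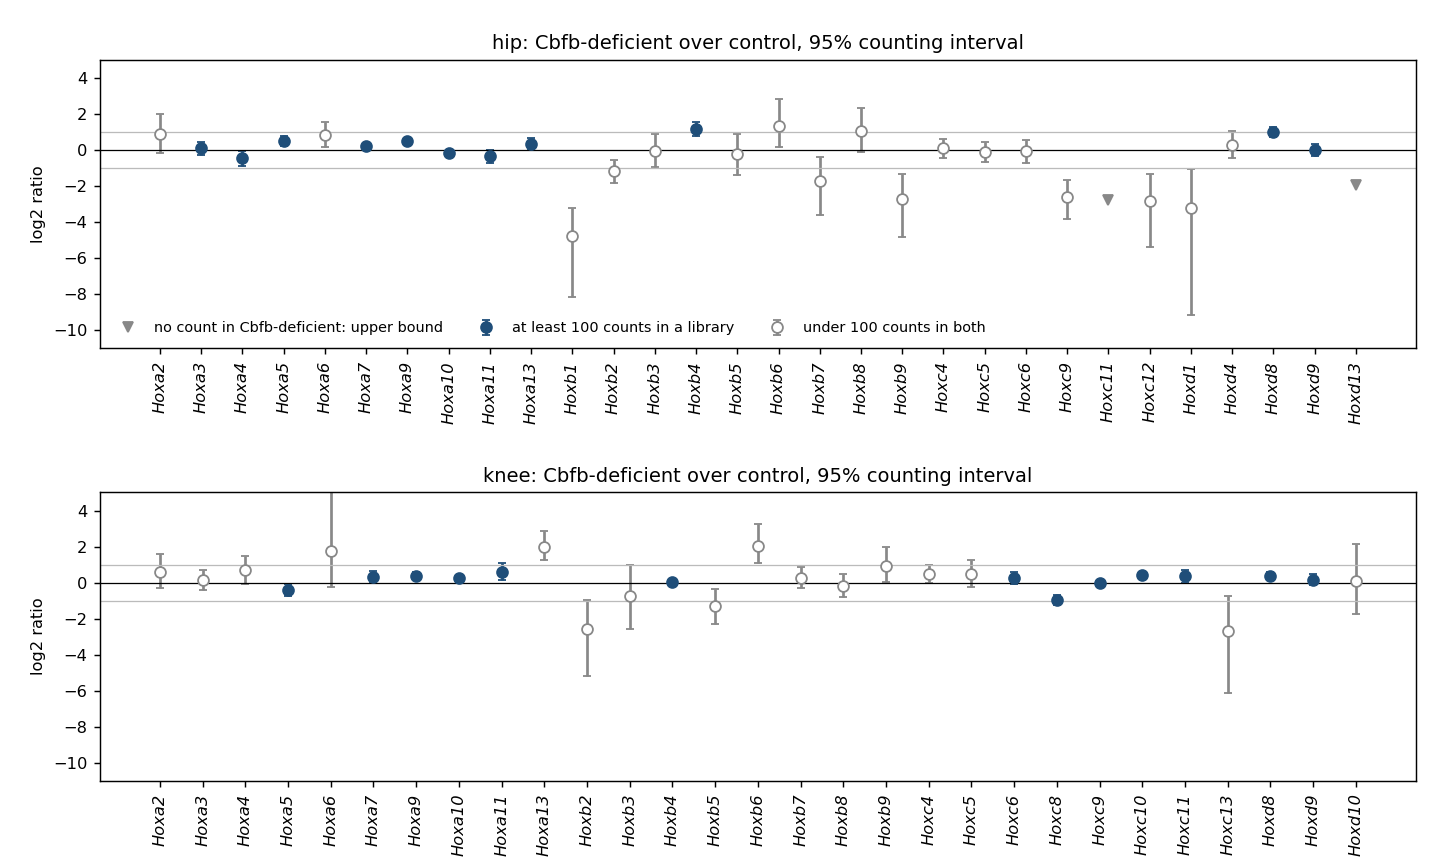
Log2 ratio of the library labelled Cbfb-deficient over its control (vertical axis) with 95% counting intervals, in the hip (top) and knee (bottom), for Hox genes with at least 10 counts in the pair, in cluster order, with lines at -1, 0 and 1 and triangles for upper bounds where the second library had no count. Filled circles (at least 100 counts in a library) lie between -0.46 and 1.16 in the hip and between -0.96 and 0.58 in the knee, and the large drops in the hip are open circles or triangles.

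Members changed within a pair at low counts also touch the comparison of joints. In the hip libraries the summed level of Hoxc8 to Hoxc11 was 2.52 CPM in the control and 0.318 CPM in the other library, which is a difference between 97 and 11 counts. Both values lay below the 39.9 and 46.5 CPM of the knee. In the knee pair the same genes gave 36.1% (34.5 to 37.6) and 32.8% (31.6 to 34.1) of the Hox counts.

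The partners and keepers of the Hox pattern were counted in the same fit, against the background of 15.9% of all genes higher in the hip and 16.3% higher in the knee (8.91% and 31.3% by library size alone). Of 9 TALE cofactors 1 was higher in the hip and 2 in the knee, with a median log2 hip over knee of -0.77 against -0.05 over all genes (by library size alone 1 and 6). Pknox2, which encodes the PREP2 partner, had hip counts of 1578 and 1471 and knee counts of 112 and 353 (3.74 ± 0.52, edgeR adjusted p = 1.47e-05). Pbx3 had hip counts of 61 and 65 and knee counts of 382 and 354 (-1.73 ± 0.60, edgeR adjusted p = 0.0314). Pbx4 had hip counts of 8 and 5 and knee counts of 104 and 118 (-3.29 ± 0.96, edgeR adjusted p = 0.0123). Pknox2 passed in every setting and with each library left out. Without the knee control Pbx3 and Pbx4 did not pass (edgeR adjusted p of 0.315 and 0.125), nor without the other knee library (0.136 and 0.0918). Of 16 Polycomb genes 3 were higher in the hip and 3 in the knee, with a median of -0.24 (by library size alone 0 and 8). Ezh2, the histone H3 methyltransferase of the complex that silences Hox clusters and is highest in dividing cells, had hip counts of 159 and 276 and knee counts of 3973 and 3384 (-3.31 ± 0.51, edgeR adjusted p = 4.15e-05). Suz12 at -1.94 was also higher in the knee, and Cbx7 at 1.80 was higher in the hip, where by library size alone it did not pass (edgeR adjusted p = 0.0792), nor without the knee control or the other knee library (0.287 and 0.0660). Ezh2 passed in every setting and with each library left out, while Suz12 did not pass with joint as the only term (edgeR adjusted p = 0.0811) or without the hip control, the knee control or the other knee library (edgeR adjusted p of 0.0684, 0.159 and 0.0979), and without the hip control its log2 hip over knee was -0.97. None of 7 Trithorax and demethylase genes passed, at a median of -0.09 (by library size alone 0 in the hip and 2 in the knee). Within the hip pair 4 of these 7 were changed higher and 0 lower, at a median log2 ratio of 1.5, and 5 of the 16 Polycomb genes were higher and 1 lower, at a median of 0.61, where 19.6% of all genes were higher and 16.9% lower and their median was -0.02. With the correction for length and GC content 3 Trithorax and demethylase genes were higher at a median of 0.62, and 5 Polycomb genes were higher and 1 lower at a median of 0.48. Within the knee pair 0 genes of either list were changed, against 15.9% of all genes.

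Other factors that set limb position were counted in the same way, against the same background. Of 22 limb and joint position factors 6 were higher in the hip and 1 in the knee, with a median log2 hip over knee of 1.00 (by library size alone 5 and 4). Within the hip pair 0 of the 21 with 10 counts were changed higher and 9 lower, at a median log2 ratio of -0.77, against 19.6% and 16.9% of all genes, and 0 and 5 with the correction for length and GC content. Within the knee pair 3 of 21 were higher and 1 lower, against 8.96% and 6.92% of all genes. With the correction 2 were higher and 1 lower, against 9.26% and 5.51%. En1, a factor of the ventral limb skin, had hip counts of 681 and 358 and knee counts of 30 and 39 (4.65 ± 0.58, edgeR adjusted p = 5.34e-06). Tbx15, a factor of the limb girdles and of fast muscle fibres, had 9338 and 13651 counts against 1412 and 3048 (3.26 ± 0.53, edgeR adjusted p = 7.03e-05). Sall4 at 3.74 and Emx2, which is needed for the shoulder blade and part of the hip bone, at 3.40 were also higher in the hip. Without the knee library labelled Cbfb-deficient neither passed (edgeR adjusted p of 0.0629 and 0.235), and without the hip control Emx2 did not (edgeR adjusted p = 0.0661), while En1 and Tbx15 passed in each fit. The hindlimb selector Pitx1 had hip counts of 811 and 208 and knee counts of 470 and 670, with the joints overlapping (0.37 ± 0.54, edgeR adjusted p = 0.640). Tbx4, its hindlimb partner, had hip counts of 104 and 74 and knee counts of 22 and 178 (1.25 ± 0.88, edgeR adjusted p = 0.300), and its forelimb counterpart Tbx5 had 113 and 72 against 22 and 67 (2.02 ± 0.83, edgeR adjusted p = 0.0672). Of the Cdx and axial genes, which act upstream of the posterior Hox genes in the embryo, 3 were tested and 1 passed. This was Cdx2, at 35 counts in the hip control and 1, 0 and 0 elsewhere (edgeR adjusted p = 0.0210, and 0.387 without the hip control). It reached the least of 20 counts through that 1 library, and it is named after its values were seen.

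Within 50000 bases of the clusters the annotation lists other genes, of which 16 at Hoxa, 10 at Hoxb, 4 at Hoxc and 10 at Hoxd were in the tables of both joints. Few had reads. Hoxa11os, the antisense transcript of Hoxa11, had hip counts of 43 and 50 and knee counts of 23 and 24 (edgeR adjusted p = 0.149), and strand was not stated, so its reads cannot be told apart from those of Hoxa11 where they overlap. Hotair, the antisense transcript between Hoxc11 and Hoxc12, had 1, 0, 0 and 8 counts. Gm11539, a pseudogene in the Hoxb cluster, had hip counts of 54 and 41 and knee counts of 225 and 132 (-1.06, edgeR adjusted p = 0.268). Evx2, a homeobox gene next to Hoxd13, was the 1 neighbour that passed (edgeR adjusted p = 0.0137), where 32.2% of all tested genes passed. It had 44 counts in the hip control and 1, 0 and 0 in the other libraries. Evx2 thus met the low-count filter through the hip control alone, the library where it was high. Its p therefore cannot show a difference between the joints, and a fit without the hip control is not given for it. Evx2 is named after its values were seen, and its reads, like those of Cdx2 and Hoxb1, came almost all from the hip control.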

How the data were processed

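Poly-A RNA-seq libraries (NEBNext Ultra), 1 per condition, were labelled as hip or knee articular cartilage, while the extraction note names osteoblasts. The authors deposited raw counts per Ensembl gene without normalization. The submitters' processing notes name FastQC 0.11.3, STAR 2.0 and mm10, whereas the study's methods name GRCm39 and a later STAR. Hip tables end with HTSeq summary lines, which held 25.8% and 24.6% of the listed reads and were left out. The knee counting program is not given in the sources used here.

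Genes were matched by identifier to GENCODE vM39 (GRCm39), which gave symbols, lengths and overlaps. Levels are CPM of counts on genes, and per kb of merged exons. The joints were compared with edgeR 4.0.16 (R 4.3.3), with joint and condition as terms, TMM, at least 20 counts over the 4 libraries and Benjamini-Hochberg adjustment over 20684 genes. An SE is the log2 difference divided by the square root of F. With 4 libraries and 1 residual degree of freedom, precision is low. Pairs were compared after TMM within the pair with 0.5 added to each count, and intervals are exact (Poisson or Clopper-Pearson, 95%), for counting error only. The fits were tested on simulated data. Alternatives were other scalings, filters, models, DESeq2 1.42.0, added counts, lengths and each library left out. TMM-scaled CPM, and subtraction of the median ratio in 20 bins of transcript length and of GC content, were chosen after seeing the data. Python 3.11.15, numpy 2.4.6, pandas 2.3.3, scipy 1.17.1 and matplotlib 3.10.9 did the rest.

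The members, lists and tests were chosen with earlier results of these data known. Values in every library are given for Hox genes with at least 100 counts in a library, called between joints or changed in a pair. Of each other list the called genes with the largest fold are named, at most 4 and with 100 counts or more in some library, plus Pitx1, Tbx4 and Tbx5. 2 genes are not reported here.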

Additional observations from a re-analysis of the deposited data

Results flagged for a closer look

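A few Hox genes had a log2 ratio of the library labelled Cbfb-deficient over its control that pointed one way in the hip and the other way in the knee, with counting intervals that left out 0 in both joints. The difference between the joints was not tested, since each ratio rests on 1 library a side. Hoxa5 was at 0.50 in the hip and -0.41 in the knee. Hoxa10 was at -0.17 in the hip and 0.25 in the knee. Hoxb9 was at -2.69 in the hip, from 32 and 4 counts, and 0.95 in the knee, from 14 and 35. Hoxc11 was at -2.78 in the hip with the floor of 3 counts in place of 0, and its 95% counting interval there ended at -2.36, and it was at 0.34 in the knee. The first 2 of these genes moved by less than 1 on the log2 scale in either joint. With ratios corrected for transcript length and GC content, a step chosen after seeing the data, Hoxa10 was at 0.22 (0.08 to 0.36) in the hip and 0.20 in the knee, so its joints no longer pointed apart. The corrected knee intervals of Hoxa5 (-0.66 to 0.03) and Hoxb9 (-0.04 to 1.90) held 0. Hoxc11 alone of these 4 kept intervals clear of 0 in opposite directions.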

How the results depend on the processing

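The 14 Hox genes called between hip and knee kept their direction in every alternative run. The number called ranged from 4 to 17 with a library left out, and that of all genes from 2486 to 8461. It was 4 without the knee control (Hoxd4, Hoxc8, Hoxc9 and Hoxc10) and 7 without the knee library labelled Cbfb-deficient. These fits held joint as the only term, and with that model and all 4 libraries it was 13. Where both libraries of a pair had to hold 10 counts, 4532 genes and 3 Hox genes were changed in the hip, against 7253 and 12. In the knee they were 2027 and 3, against 3356 and 5. How many Hox genes and how many of all genes met this filter is not given here. The falls are thus not set against a share of all genes. The Hoxc share of Hox counts in the knee control was 45.6% per kb of merged exons and 45.5% per kb of canonical transcript, and in the other knee library 43.7% and 42.8%. With ratios corrected for transcript length and GC content, a step chosen after seeing the data, the Hox median of the hip pair was 0.29. Scaling by library size alone moved the split of calls as given with the comparison of joints. No paired analysis was possible because the groups share only 1 replicate number, which names a library and pairs nothing. Joint is already a term of the fit. With 1 library per condition, depth does not limit the well-counted genes, while genes under 100 counts carry wide counting intervals.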
